A study of Mus musculus with 12 samples.

Results

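Untreated LGR5+ and LGR5- cells of mouse liver cancer organoids were compared over well-expressed genes, defined as a mean level of 10 or more CPM, read counts scaled to a common library size, over the 6 untreated libraries. The rule chose 9015 of the 16157 genes tested and of the 47069 genes in the table. The mean over both populations decided membership, and 8813 of the genes were at 10 or more CPM in each. The rest passed through the population in which they were higher, with 99 under the limit in LGR5- and 103 under it in LGR5+ cells, so that a difference helped to decide their membership. Entpd5 (10.0022 CPM) was the lowest gene inside the limit and Zfp867 (9.99954 CPM) the highest outside it. Both populations came from organoids of C57BL/6 mice with the genotype LGR5-DTRGFP+, in which green fluorescent protein and the diphtheria toxin receptor are made from the Lgr5 locus, and the tissue label is liver cancer. The tumors had been induced with the carcinogen diethylnitrosamine. Cells were sorted by green fluorescence after dead cells and CD45+ leucocytes had been gated out, and each population gave 3 libraries. The other 6 libraries came from the same populations after 5-fluorouracil (5-FU). They entered the filter on low counts, the scaling and the estimate of the spread, but not the comparison itself. The labels do not say whether replicates were separate cultures or animals, so P values measure the spread between these libraries, which may be technical.

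LGR5 is a receptor for R-spondins that strengthens Wnt signaling at the cell surface by holding back the ubiquitin ligases RNF43 and ZNRF3. Its gene is itself switched on by Wnt, and it marks stem cells of the gut and cells that appear in injured liver. The comparison asks how the transcriptomes of the 2 populations differ before any drug is given, and for well-expressed genes it can also be read the other way, as the size of difference that the libraries leave no room for. For each gene that size is called the bound here: the fold difference, in either direction, at the farther end of the 95% interval of the LGR5+ against LGR5- ratio. A bound of 1.6 means that the interval excludes any rise or fall of more than 1.6-fold.

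The 6 libraries held 15831066 to 19323514 counted reads, so that 10 CPM stood for 163 to 182 reads. Genes of the rule took 96.8% to 98.1% of all reads. LGR5- replicate 3 stood apart, with 6.93% of its reads from the mitochondrial genome against 1.49% to 2.08% in the other 5. The median SD of log2 CPM was 0.27 among the LGR5- libraries, 0.19 among the LGR5+ libraries and 0.11 between LGR5- replicates 1 and 2. LGR5- replicate 1 and LGR5+ replicate 1 were the closest pair of all, with a median absolute log2 difference of 0.0837 over the 9015 genes, against 0.16 to 0.415 between libraries of the same population. Their counts differed by more than the noise of sampling reads (chi-square of 3.54 per degree of freedom). That does not show whether they came from separate cultures or animals, because libraries of 1 source can differ as much. Every library was counted as 1 sample.

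A 2-fold difference was excluded for 8520 of the 9015 genes (94.5%), and for 8372 of the 8813 at or above the limit in both populations. The corresponding share of all genes tested was 66.6%. A 1.5-fold difference was excluded for 4600 genes (51%), against 30.1% of all genes tested. When equivalence within 2-fold was tested with a Benjamini-Hochberg correction over all genes, 8618 genes (95.6%) passed, against 69.1% of all genes tested; for 98 of them the single interval still reached beyond 2-fold. The median bound was 1.496-fold (0.58 on the log2 scale), with 1.31-fold and 2.03-fold at the 5th and 95th percentiles. The interval reached 3-fold or more in 95 genes, 4-fold or more in 43 and 8-fold or more in 10. The count at 1.5-fold rested on having all 3 libraries: leaving out LGR5- replicate 1, 2 or 3 gave 2459, 2724 or 3659 genes, and leaving out LGR5+ replicate 1, 2 or 3 gave 2508, 2958 or 2689. At 2-fold the count lay between 7895 and 8200 when any of these libraries was left out.

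No gene of the rule differed between the populations at an adjusted P under 0.05, and none of all genes tested did (0% called, edgeR's quasi-likelihood test with Benjamini-Hochberg adjustment). At an unadjusted P under 0.05 there were 51, of which 36 were higher and 15 lower in LGR5+ cells. These are 0.399% and 0.166% of the 9015 genes, against 0.582% and 0.743% of all genes tested. Of the 36 higher genes 5 were under 10 CPM in LGR5- cells, and of the 15 lower genes 2 were under it in LGR5+ cells. DESeq2 called 0 adjusted and 67 unadjusted, and limma-voom 0 and 45. The unadjusted count moved with single libraries, to 153 or 188 when LGR5- replicate 1 or 3 was left out and to 158 or 28 when LGR5+ replicate 1 or 3 was. The balance between higher and lower genes turned when LGR5+ replicate 2 was left out (13 higher, 50 lower), and also on leaving out LGR5- replicate 2 (23 higher, 44 lower) or 1 (70 higher, 83 lower). With no filter on low counts it was 61 higher and 9 lower. With an absolute log2 fold change over 1.5 as a further condition, 2 of the 9015 genes were left on the higher side (0.0222%) and 0 on the lower side (0%). Over all 16157 genes tested it was 21 higher (0.13%) and 53 lower (0.328%). In 8944 genes the estimate itself lay within 1.5-fold.

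**Figure D1:**
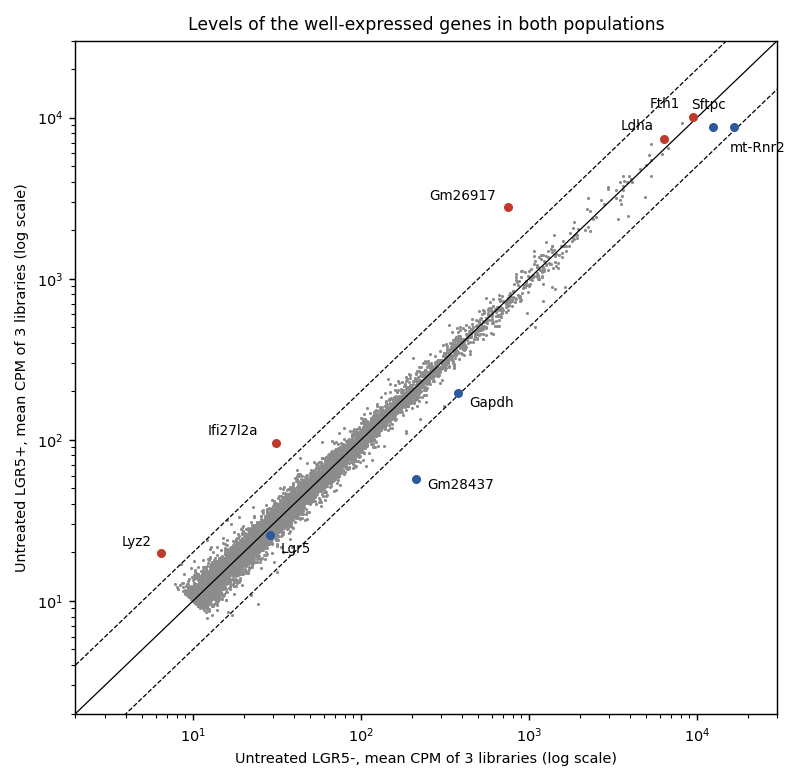
Mean CPM of each of the 9015 genes in the 3 untreated LGR5- libraries (x axis, log scale) and the 3 untreated LGR5+ libraries (y axis, log scale). The solid line marks equal levels and the dashed lines a 2-fold difference; Gm26917, Ifi27l2a and Lyz2 lie above the upper dashed line and Gm28437 below the lower one, while Lgr5 lies next to the line of equality.

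The most abundant transcripts were largely the same in both populations. The lists of the 20, 50, 100 and 500 highest genes by CPM shared 18, 46, 87 and 483 genes, and the 100 highest per kilobase of exon shared 92. Of the 100 highest genes over the 6 libraries, 27 encode ribosomal proteins, 6 glycolytic enzymes and 6 simple epithelial keratins or cytoskeletal proteins. The 13 genes that each list of 100 held alone mark a cut by rank, not a tested difference. On the LGR5- side they included mt-Co1, mt-Nd4 and mt-Nd2 of the mitochondrial genome, whose reads were highest in LGR5- replicate 3, and the ribosomal protein genes Rps29, Rpl14, Rps24 and Rps27. On the LGR5+ side they included Gm26917, the asparagine synthetase gene Asns (1069 CPM in LGR5- and 1374 CPM in LGR5+ cells) and Nkd1, a feedback inhibitor of Wnt signaling (1119 and 1209 CPM).

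By the mean over the 6 libraries, mt-Rnr2, the mitochondrial large ribosomal RNA, headed the list. It had 6628, 9275 and 33700 CPM in LGR5- replicates 1 to 3 and 5580, 13190 and 7411 CPM in the LGR5+ libraries. In LGR5+ cells alone its mean (8728 CPM) was below those of Fth1 (10020 CPM), Actb (9205 CPM) and Sftpc (8773 CPM). LGR5- replicate 3 lay far above the other 5, and the log2 bound was 2.02 with it and 0.94 without it. The log2 fold change was -0.92 (unadjusted P = 0.0961, edgeR). It was 0.13 without LGR5- replicate 3, and the unadjusted P was 0.0206, 0.0466 and 0.0394 without LGR5- replicate 1, LGR5- replicate 2 and LGR5+ replicate 2. Sftpc, the surfactant protein C gene of lung alveolar cells, came next with 16440, 17330 and 3440 CPM in LGR5- and 15670, 5764 and 4891 CPM in LGR5+ cells. Its high libraries were LGR5- 1 and 2 and LGR5+ 1, so that each population held both levels and a fall of up to 3.17-fold was not excluded. Fth1, the ferritin heavy chain that stores iron, was at 9470 ± 3353 CPM in LGR5- and 10020 ± 1745 CPM in LGR5+ cells (SD, n = 3), with a bound of 1.64-fold.

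Among the next genes, Tmsb4x, which encodes the actin-binding thymosin beta 4, varied little, with 6151, 6177 and 6317 CPM against 6177, 6461 and 5166 CPM and a bound of 1.61-fold. Actb, the cytoplasmic actin often used as a reference, ranged from 3069 CPM in LGR5- replicate 3 to 12320 CPM in LGR5+ replicate 1, and its bound was 2.19-fold. Bsg, the chaperone of lactate transporters, had 4966, 5091 and 5810 CPM in LGR5- and 5382, 7935 and 7186 CPM in LGR5+ cells. Only LGR5+ replicate 1 overlapped the LGR5- range. The bound was 2.17-fold. The translation factor Eef1a1 (1.64-fold), the cyclophilin Ppia (1.71-fold), the chaperone Hsp90ab1 (1.70-fold), the small proline-rich protein gene Sprr2a3 (1.65-fold) and the ferritin light chain gene Ftl1 (1.57-fold) had bounds under 2, and Ldha (2.19-fold) and Pkm (2.32-fold), of glycolysis, did not. Sprr2a3 has near-identical neighbours in its gene cluster, so reads may have been split between copies. Per kilobase of exon, the highest levels were those of Sftpc (10240 CPM per kilobase), the annotated microRNA gene Gm23935 (8487), mt-Rnr2 (7984), the interferon-induced membrane protein gene Ifitm3 (4913) and Tmsb4x (4431). Gm23935 has only 57 bases of exon and was at 484 CPM, rank 307 by CPM, so that its place here rests on its short length.

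Lgr5 itself (ENSMUSG00000020140, GRCm38 chromosome 10, 115450311 to 115587780) was at 27.5, 22.99 and 36.0 CPM in LGR5- and 27.5, 23.4 and 26.2 CPM in LGR5+ cells. The ranges overlapped, and the highest value belonged to an LGR5- library. The log2 fold change was -0.17 ± 0.23 (SE) with an unadjusted edgeR P of 0.487, and the 95% interval excluded a rise of more than 1.26-fold and a fall of more than 1.59-fold. Without LGR5- replicate 3 the log2 fold change was 0.026. Sorting was by the fluorescent protein made from this locus, so that the transcript was not itself the gate.

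Of the 47 genes of the Wnt list, 32 were expressed at 10 or more CPM, and for all 32 a 2-fold difference was excluded, also when any of the 6 libraries was left out, beside 94.5% of all 9015 genes. None passed an unadjusted P of 0.05, and in none did the groups separate. The median log2 fold change was -0.0011 and the median bound 1.48-fold. The 2 ubiquitin ligases on which LGR5 acts were narrow. Znrf3, the ubiquitin ligase that removes Wnt receptors, was at 89.4, 86.7 and 99.5 CPM in LGR5- and 97.1, 89.7 and 87.3 CPM in LGR5+ cells, with a bound of 1.26-fold, and its partner Rnf43 had 1.31-fold. The target and feedback gene Axin2 was lowest in both replicates 1, with 73.3, 113 and 139 CPM against 76.4, 102 and 98.9 CPM, and its bound was 1.64-fold. The populations overlapped for both genes.

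Other Wnt targets and feedback genes were Nkd1 (1164 CPM over the 6 libraries, bound 1.68-fold), Notum, which strips the lipid from Wnt proteins (297 CPM, 1.47-fold), the transcription factor Sp5 (bound 1.56-fold) and Tcf7 (bound 1.47-fold). Of the receptors, Lgr6, the relative of Lgr5, was at 226 ± 38.0 CPM in LGR5- and 222 ± 47.1 CPM in LGR5+ cells (SD, n = 3), and its bound was 1.36-fold. Lrp6, the co-receptor, had a bound of 1.28-fold, and the frizzled receptors Fzd2, Fzd3, Fzd6 and Fzd7 had 1.36 to 1.61-fold. Wnt ligands above the limit were Wnt10a, Wnt7b and Wnt7a, with bounds of 1.57, 1.61 and 1.39-fold. The widest bound of the list was that of Ctnnb1, which encodes the signal transducer beta-catenin, at 1.70-fold.

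Stem, progenitor and tumor-initiating cell markers gave 28 genes above the limit, and 27 of them excluded a 2-fold difference. Epcam, the adhesion molecule of simple epithelia, was at 1420, 1457 and 1246 CPM in LGR5- and 1463, 1482 and 1466 CPM in LGR5+ cells. Every LGR5+ library lay above every LGR5- library, yet the log2 fold change was 0.10 ± 0.23 (SE) and the bound 1.501-fold. Myc, the growth-promoting transcription factor, was the other gene of the list whose groups did not overlap, with 138, 137 and 88.6 CPM against 142, 156 and 146 CPM and a bound of 1.68-fold. Over all genes tested, 2.7% had every LGR5+ library above every LGR5- library and 2.57% the reverse; among the 9015 genes it was 2.67% (241) and 1.97% (178).

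Sox9, a transcription factor of biliary and progenitor cells (1.76-fold), Cd44, the hyaluronan receptor (1.44-fold), Prom1, which encodes CD133 (1.499-fold), Aldh1a1 (1.43-fold) and Clu, the clusterin gene of regenerating gut epithelium (1.86-fold), all had bounds under 2. The exception was Ly6a, which encodes the surface protein SCA-1. It was at 161, 150 and 122 CPM in LGR5- and 170, 396 and 154 CPM in LGR5+ cells, so that LGR5+ replicate 2 alone stood out. The log2 fold change was 0.73 ± 0.35 (SE) with an unadjusted edgeR P of 0.0521. Without LGR5+ replicate 2 it was 0.17, and leaving out LGR5+ replicate 1 or 3 gave an unadjusted P of 0.0249 or 0.0175. Leaving out LGR5- replicate 2 lowered the number of genes with a 2-fold difference excluded to 22 of 28, the lowest of the 6.

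**Figure D2:**
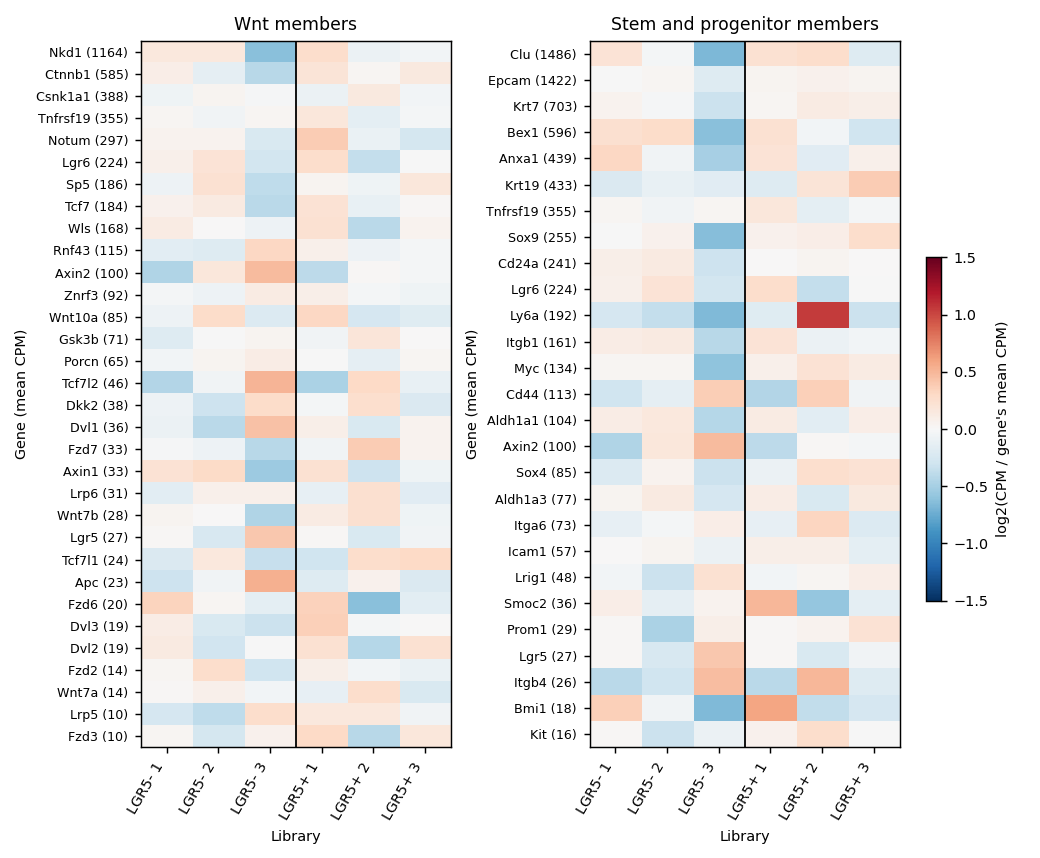
Level of Wnt genes (left) and of stem or progenitor markers (right) in the 6 untreated libraries, as the log2 ratio of its CPM to its mean over the 6 libraries, with that mean CPM in brackets beside the name. Columns left of the black line are LGR5- and right of it LGR5+; Many of the deeper colors are in LGR5- replicate 3, Ly6a is deepest in LGR5+ replicate 2, and no block of color follows the line.

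The other signaling lists were also near the 94.5% of all 9015 genes. All members above the limit excluded a 2-fold difference for the Notch pathway (12 of 12, median bound 1.42-fold), the EGF family and its receptors (20 of 20, 1.51-fold) and the Hippo pathway (16 of 16, 1.47-fold). Notch1, the receptor, had the widest bound of its list at 1.69-fold, and Yap1, the effector of the Hippo pathway, one of 1.30-fold. Of 20 TGF beta and BMP genes 19 excluded it, and the exception, Id3, an inhibitor of differentiation factors and a BMP target, was at 84.5, 141 and 26.9 CPM against 108, 63.2 and 26.9 CPM. Both replicates 3 were low. Of 23 PI3K and mTOR genes 21 excluded it, and Eif4ebp1, the translation repressor that mTOR inactivates, had the widest bound at 2.51-fold, with 162, 246 and 205 CPM against 170, 512 and 282 CPM. The only gene of that list at an unadjusted P under 0.05 was Deptor, an inhibitor of mTOR, at 8.56 ± 0.396 CPM in LGR5- and 12.99 ± 2.87 CPM in LGR5+ cells (SD, n = 3, edgeR, unadjusted P = 0.0464, adjusted P = 1), and it passed the limit only through the LGR5+ libraries.

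**Figure D3:**
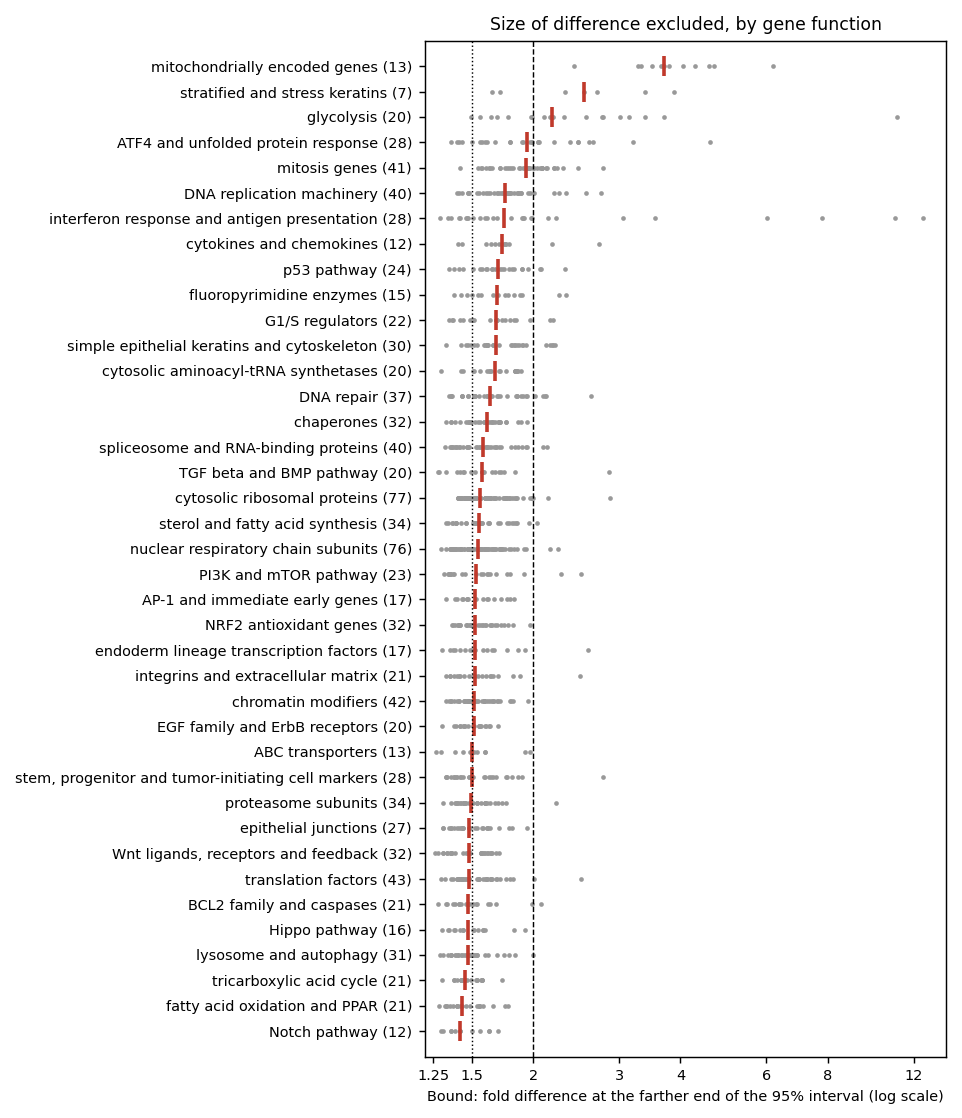
Bounds of the members of each function list (grey points), with the list's median as a red bar and the number of members above 10 CPM in brackets; the x axis is the fold difference at the farther end of the 95% interval, on a log scale. The dotted line is at 1.5-fold and the dashed line at 2-fold. Medians run from 1.42-fold for the Notch pathway to 3.70-fold for mitochondrially encoded genes.

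Lists of basic cell functions are likewise to be read beside the 94.5% of all 9015 genes. The 2-fold difference was excluded for all members of the tricarboxylic acid cycle (21 of 21, median bound 1.45-fold), fatty acid oxidation (21 of 21, 1.43-fold), lysosome and autophagy (31 of 31, 1.47-fold), chaperones (32 of 32, 1.61-fold), chromatin modifiers (42 of 42, 1.52-fold), NRF2 antioxidant genes (32 of 32, 1.52-fold), AP-1 and immediate early genes (17 of 17, 1.52-fold) and epithelial junctions (27 of 27, 1.48-fold). The cytosolic aminoacyl-tRNA synthetases did so too (20 of 20), but for 12 of 20 without LGR5- replicate 2. Proteasome subunits (33 of 34), spliceosome and RNA-binding proteins (38 of 40), sterol and fatty acid synthesis (33 of 34), translation factors (41 of 43) and nuclear respiratory chain subunits (74 of 76) had 1 or 2 exceptions each. Idh3b of the tricarboxylic acid cycle (113, 103 and 107 CPM against 105, 109 and 112 CPM) shows what a bound of 1.30-fold rests on.

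For cytosolic ribosomal proteins, 75 of 77 excluded a 2-fold difference, with a median bound of 1.56-fold. The estimate was lower in LGR5+ cells for 70 and higher for 7, with a median log2 fold change of -0.13, and the number higher ran from 1 to 28 as single libraries were left out. None reached an unadjusted P of 0.05, while in 10 every LGR5+ library lay below every LGR5- library, against the 1.97% of the 9015 genes given above. The widest was Rpl7a, with 134, 250 and 173 CPM in LGR5- and 69.2, 147 and 113 CPM in LGR5+ cells. Ribosomal protein genes have many processed pseudogene copies, and how reads shared with copies were counted is not given in the sources used here.

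Energy genes held the widest list of all. None of the 13 mitochondrially encoded genes above the limit excluded a 2-fold difference, and their median bound was 3.70-fold. Summed over the 13, they were at 17400, 17390 and 61830 CPM in LGR5- and 15190, 20720 and 18970 CPM in LGR5+ cells. All 13 estimates were lower in LGR5+ cells, with a median log2 fold change of -0.67. Without LGR5- replicate 3 the median was -0.019, 6 of 13 estimates were higher and 3 of 13 genes excluded a 2-fold difference. The widest was mt-Rnr1, the small mitochondrial ribosomal RNA (272, 548 and 2456 CPM against 237, 848 and 427 CPM), with a bound of 6.18-fold. mt-Cytb, the cytochrome b gene of complex III, was also highest in LGR5- replicate 3, with 4063, 2643 and 8061 CPM against 3887, 1916 and 3814 CPM.

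Of 20 glycolysis genes, 7 excluded a 2-fold difference, and the number ran from 4 without LGR5- replicate 1 to 7. Their median bound was 2.19-fold and 16 of 20 estimates were higher in LGR5+ cells, with none at an unadjusted P under 0.05. Summed over the 20, they were at 16160 CPM in LGR5- replicate 3 and at 23530 to 28360 CPM in the other 5 libraries, and 16 of 20 estimates were also higher without LGR5- replicate 3, with a median log2 fold change of 0.19 against 0.23 with it. Ldha, the lactate dehydrogenase subunit, was at 7335, 7822 and 3839 CPM in LGR5- and 7395, 7111 and 7542 CPM in LGR5+ cells, and only LGR5- replicate 3 was low. Hk2, the hexokinase that starts the pathway, had the narrowest bound at 1.49-fold, and Gapdh the widest.

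Gapdh, the glycolytic enzyme gene that often serves as a reference for other measurements, was at 48.7, 798 and 293 CPM in LGR5- and 299, 234 and 54.3 CPM in LGR5+ cells. Each population had a library near 50 CPM and others several times higher. The log2 fold change was -0.96 ± 1.12 (SE, unadjusted P = 0.419, edgeR) and the interval excluded only a fall of more than 11.1-fold and a rise of more than 2.95-fold. Gapdh has many processed pseudogene copies in the mouse genome, and whether reads shared with them affected its count was not tested. Without LGR5- replicate 2 the log2 fold change was 0.21.

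Proliferation genes were wider than most. Of 41 mitosis genes, 27 excluded a 2-fold difference (10 without LGR5- replicate 1), with a median bound of 1.93-fold. All 41 estimates were higher in LGR5+ cells, with a median log2 fold change of 0.26 and none at an unadjusted P under 0.05; without LGR5- replicate 3 it was 37 of 41 with a median of 0.19. Aurkb, the kinase of the chromosomal passenger complex, was at 157, 121 and 88.7 CPM against 149, 131 and 179 CPM, with a bound of 2.78-fold. Ube2c, which works with the anaphase-promoting complex, was at 746, 543 and 380 CPM against 658, 873 and 749 CPM, and Cdk1, the mitotic kinase, at 590, 464 and 333 CPM against 544, 461 and 495 CPM. In all 3 genes LGR5- replicate 3 was the lowest library and the populations overlapped.

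DNA replication genes had a median log2 fold change of -0.035. A 2-fold difference was excluded for 34 of 40 (19 without LGR5- replicate 3), and Cdc6, the loader of the replicative helicase, was the widest at 2.75-fold. Cdkn1a, the p53 target that encodes the cell cycle inhibitor p21, was at 830, 970 and 720 CPM in LGR5- and 892, 1331 and 1009 CPM in LGR5+ cells, with a bound of 1.82-fold. Among the enzymes that handle fluoropyrimidines, 13 of 15 excluded a 2-fold difference (9 without LGR5- replicate 3). Tyms, the thymidylate synthase that 5-FU inhibits, was at 238, 240 and 163 CPM against 225, 137 and 178 CPM, overlapping, with a bound of 1.76-fold. Rrm2, the ribonucleotide reductase subunit, was the widest at 2.33-fold. All 13 ABC transporters above the limit excluded a 2-fold difference, with a median bound of 1.502-fold.

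Stress lists split by pathway. For the ATF4 and unfolded protein response 17 of 28 genes excluded a 2-fold difference (10 without LGR5+ replicate 1), with 27 of 28 estimates higher in LGR5+ cells and a median log2 fold change of 0.32, which ran from 0.12 to 0.41 as single libraries were left out. The only gene of the list at an unadjusted P under 0.05 was Cth, which makes cysteine from cystathionine, at 13.97 ± 1.90 CPM in LGR5- and 21.7 ± 11.4 CPM in LGR5+ cells (SD, n = 3, edgeR, unadjusted P = 0.0450, adjusted P = 1), and the groups overlapped. Aldh1l2, the mitochondrial folate enzyme, was the widest: 5.45, 7.13 and 12.8 CPM against 5.83, 33.7 and 11.7 CPM, so that LGR5+ replicate 2 alone was high. Asns was at 1371, 1269 and 566 CPM against 1351, 1631 and 1142 CPM. Of 24 p53 pathway genes, 21 excluded a 2-fold difference and 1 passed an unadjusted P of 0.05. That gene was Bbc3, which encodes the pro-apoptotic protein PUMA, at 23.1, 19.0 and 17.8 CPM in LGR5- and 28.3, 30.1 and 29.6 CPM in LGR5+ cells (log2 fold change 0.55 ± 0.23 (SE), unadjusted P = 0.0333 and adjusted P = 1 in edgeR). The groups did not overlap, and the P was above 0.05 when LGR5- replicate 2 or 3 or LGR5+ replicate 2 or 3 was left out (0.0656 to 0.0861). DNA repair genes excluded a 2-fold difference in 32 of 37.

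Interferon genes had the widest single bound of any list. Type I interferon activates transcription factors that bind a promoter motif whose core reads GAAANNGAAA. Of 28 genes of interferon response and antigen presentation 20 excluded a 2-fold difference, and the 8 that did not included Isg15, Irf7, Usp18, Oas1a, Bst2, Psmb9 and B2m. The motif was searched on both strands of the 250 bases before the gene start in RefSeq promoters of GRCm38.p6, where 3.46% of 27025 genes held it. It was found for 4 of the 6 wide genes of the list that had a promoter sequence and for 3 of the 18 narrow ones. The list mixes interferon-induced genes with receptors and antigen presentation genes, and this split was not tested. Over all the well-expressed genes with a promoter sequence, it was found for 14 of 334 that did not exclude a 2-fold difference (4.19%) and for 192 of 6648 that did (2.89%). The windows are shown, 5′ to 3′ in the direction of the gene, to place the wide genes Isg15, Oas1a, Bst2 and B2m beside the narrow gene Irf2, with the motif in capitals. The narrow genes Stat2 (bound 1.99-fold) and H2-T23 (1.66-fold) also held the motif and are not shown. Stat2 and B2m (2.14-fold) lie close to the 2-fold cut on either side. Isg15 holds 3 overlapping matches, Oas1a and Bst2 2 each, and only 1 of each is in capitals.
Isg15 (chr4:156200856-156200915, minus strand): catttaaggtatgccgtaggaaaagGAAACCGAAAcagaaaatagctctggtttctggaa
Oas1a (chr5:120907526-120907564, minus strand): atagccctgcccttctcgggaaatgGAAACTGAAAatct
Bst2 (chr8:71537562-71537621, minus strand): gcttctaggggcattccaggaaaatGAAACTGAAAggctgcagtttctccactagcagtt
B2m (chr2:122147523-122147582, plus strand): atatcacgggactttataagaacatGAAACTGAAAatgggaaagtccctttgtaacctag
Irf2 (chr8:46739495-46739538, plus strand): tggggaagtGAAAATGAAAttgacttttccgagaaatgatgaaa

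Isg15, the ubiquitin-like protein attached to others after interferon, was at 48.6, 73.6 and 2.11 CPM in LGR5- and 67.7, 97.1 and 5.50 CPM in LGR5+ cells. Replicate 3 of both populations was low and replicate 2 of both was highest, and the ranges of the populations overlapped. At each replicate number the LGR5+ value was the higher. The main fit does not pair libraries by number, so the bound counts the spread between replicates as error. The log2 fold change was 0.45 ± 1.42 (SE) and the bound 12.5-fold. Oas1a, a sensor of double-stranded RNA, had the same order of libraries (48.0, 68.6 and 8.49 CPM against 58.1, 95.9 and 11.7 CPM). Usp18, the protease that removes ISG15, had that order within each population (14, 18.9 and 4.66 CPM against 23.3, 29.9 and 1.85 CPM). Irf7, the transcription factor that amplifies interferon production, was at 45.4, 72.8 and 12.2 CPM against 74.0, 146 and 13.0 CPM. The LGR5+ value was also the higher at each replicate number for Oas1a and Irf7, but not for Usp18 at replicate 3. Irf7, Oas1a and Usp18 were picked after their values were seen.

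Outside the list, Ifi27l2a, an interferon-induced gene of the mitochondrial and nuclear membranes, had the widest bound of all 9015 genes at 23.9-fold, with 25.8, 50.8 and 17.2 CPM against 35.5, 243 and 9.97 CPM. Ifi44 followed at 18.6-fold, with 12.1, 23.3 and 0.999 CPM against 18.6, 52.3 and 1.07 CPM. In both genes LGR5+ replicate 2 was the highest library and LGR5+ replicate 3 among the lowest, so that a single population held values far apart. The 4 interferon receptor genes of the list were narrow. Ifnar1 was at 24.0, 19.6 and 23.3 CPM against 24.2, 20.1 and 22.3 CPM, with a bound of 1.29-fold, and Ifnar2, Ifngr1 and Ifngr2 had bounds of 1.34, 1.36 and 1.46-fold. H2-D1, a class I antigen-presenting molecule, had 1.90-fold and Ly6e, the most abundant gene of the list, 1.80-fold.

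**Figure D4:**
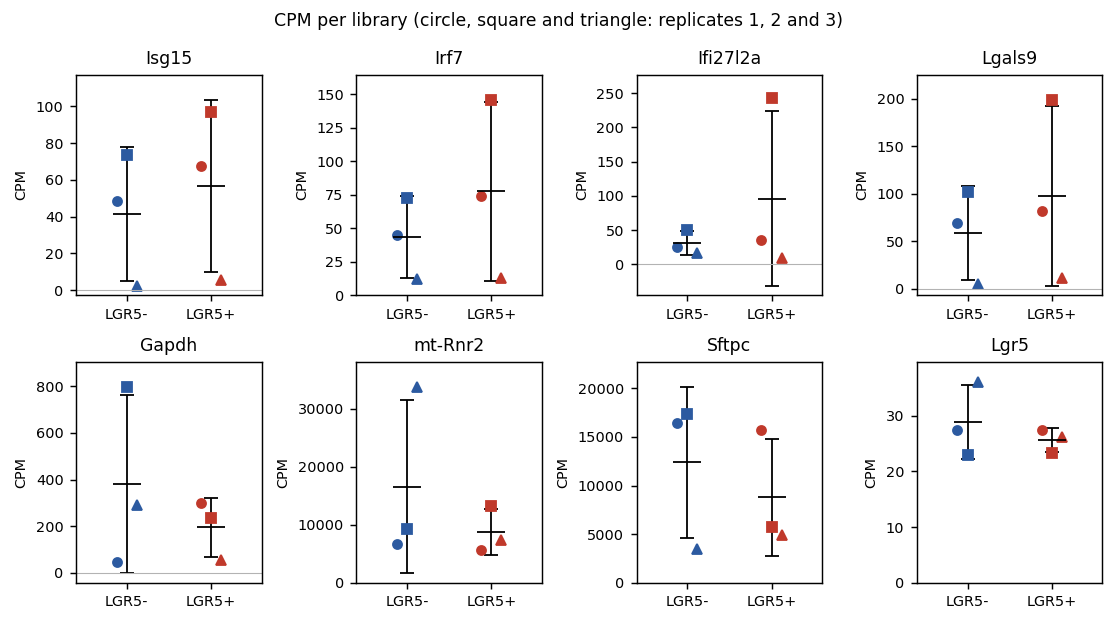
CPM per library for 8 genes, with LGR5- libraries in blue and LGR5+ libraries in red, replicates 1 to 3 as circles, squares and triangles, and the mean ± SD of 3 libraries in black. For Isg15, Irf7, Ifi27l2a and Lgals9 the triangles are the lowest values in both populations, for mt-Rnr2 the blue triangle alone is high, and for Lgr5 all 6 values lie between 22.99 and 36.0 CPM.

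Epithelial genes were mixed. Of 30 simple epithelial keratins and cytoskeletal genes 25 excluded a 2-fold difference (16 without LGR5- replicate 2), and of 21 integrin and matrix genes 20 did. Of 7 stratified and stress keratin genes only 2 did, with a median log2 fold change of 0.41. Krt5, the basal keratin, was at 17.0, 15.6 and 24.2 CPM in LGR5- and 13.7, 46.3 and 39.1 CPM in LGR5+ cells, so that LGR5+ replicates 2 and 3 were above the rest and replicate 1 was below it. Sprr1a, a cornified envelope precursor, was at 3.88, 13.6 and 20.6 CPM against 6.06, 29.4 and 20.4 CPM, with both replicates 1 low. Of 17 endoderm transcription factors 16 excluded a 2-fold difference, and Onecut2 was the exception at 2.59-fold, with 24.1 CPM in LGR5- replicate 3 and 6.18 to 11.3 CPM in the other 5 libraries.

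At the narrow end, Mdp1, a magnesium-dependent phosphatase, was at 53.6, 51.0 and 54.3 CPM in LGR5- and 52.3, 51.2 and 54.9 CPM in LGR5+ cells, and a difference of more than 1.23-fold was excluded. Pex13, of the peroxisomal import channel, had the same bound, and Vipas39, Med20 and Dhrs7b had 1.24-fold. Among these genes the median bound changed little with abundance. It was 1.55-fold for 2313 genes at 10 to 20 CPM, 1.47-fold at 20 to 50 CPM, 1.46-fold at 50 to 100 CPM, 1.49-fold at 100 to 300 CPM and 1.58-fold for the 516 genes above 300 CPM. The share that excluded a 1.5-fold difference changed more, from 38.7% at 10 to 20 CPM to 59.6% at 50 to 100 CPM and 31.8% above 300 CPM. Counting error was a median of 0.217 of the standard error and under 50% of it in 99.9% of the genes.

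**Figure D5:**
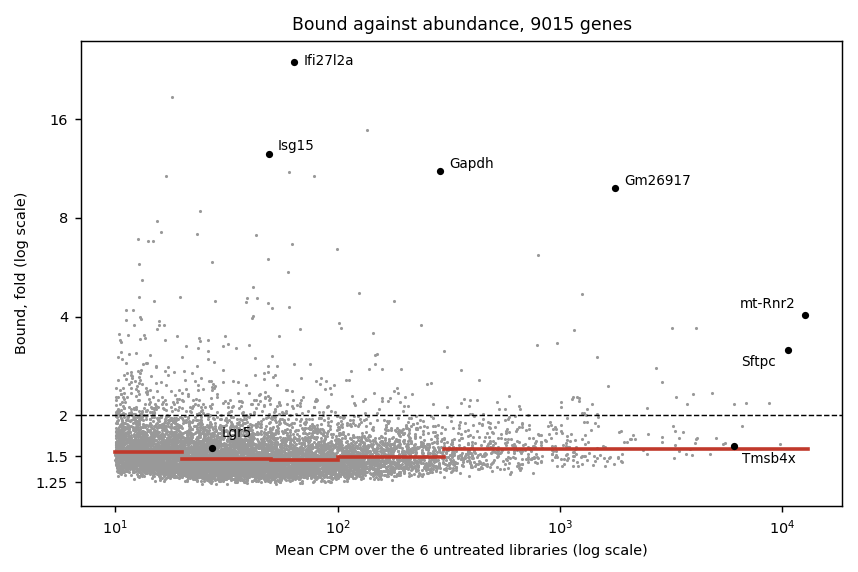
Bound of each of the 9015 genes (y axis, fold, log scale) against its mean CPM over the 6 untreated libraries (x axis, log scale), with the median of each abundance class as a red line and the 2-fold limit dashed. The red lines stay between 1.46-fold and 1.58-fold, and genes far above the dashed line occur at every level.

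The smallest P of the 9015 genes was that of Lyz2, the lysozyme of macrophages and of lung alveolar cells. It was at 10.1, 5.71 and 3.61 CPM in LGR5- and 22.2, 25.7 and 11.3 CPM in LGR5+ cells, and every LGR5+ library lay above every LGR5- library. With a mean of 6.46 CPM in LGR5- and 19.8 CPM in LGR5+ cells it passed the 10 CPM limit only through the LGR5+ libraries, so its difference and its place among the genes are not independent. The log2 fold change was 1.62 ± 0.35 (SE, unadjusted P = 0.000428 and adjusted P = 1 in edgeR), and the unadjusted P stayed under 0.05 in every alternative and with every library left out. Its log2 fold change fell below the threshold of 1.5 when LGR5- replicate 3 (1.33) or LGR5+ replicate 2 (1.39) was left out. Its near-identical neighbour Lyz1, which can share its reads, was at 14.5, 18.7 and 0.833 CPM against 11.5, 15.1 and 6.21 CPM. Of 18 macrophage markers, 4 were above the limit: Lyz1, Lyz2, the co-receptor gene Cd14 (25.3, 30.9 and 25.3 CPM against 28.2, 52.2 and 37.9 CPM) and Cd74 (18.2 to 51.6 CPM over the 6 libraries). Cd68 was at 5.94 to 13 CPM. The other 13 were at most 1.72 CPM, with Marco and Clec4f at no read, Adgre1 at most 0.389 CPM and Csf1r at most 0.246 CPM. The summed level of the 18 macrophage markers was 64.2 to 107 CPM in LGR5- and 93.1 to 143 CPM in LGR5+ cells. Most of it came from the 4 above the limit (47.97 to 98.86 and 83.09 to 127.9 CPM). The low markers went both ways. Means were higher in LGR5- cells for Fcer1g (0.781 against 0.217 CPM), Tyrobp, Aif1, Adgre1, C1qa and C1qc. They were lower there for Csf1r, Itgam, Mrc1, C1qb and Ptprc.

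The other gene past both thresholds was Gm26917, a long noncoding RNA whose annotation ends 12 bases before the ribosomal RNA gene CT010467.1 on chromosome 17. It was at 663, 678 and 916 CPM in LGR5- and 441, 5530 and 2362 CPM in LGR5+ cells. LGR5+ replicate 1 was the lowest of all 6 and the other 2 were the highest, so that the groups overlapped. CT010467.1 was at 3732, 5745 and 6399 CPM against 3005, 7557 and 2492 CPM, and the part that ribosomal RNA had in the Gm26917 counts was not tested. Without LGR5+ replicate 2 the log2 fold change fell from 1.88 to 0.90 (unadjusted P = 0.145). The unadjusted P was 0.0156 with all libraries but 0.0553 or 0.0537 when LGR5- replicate 1 or 3 was left out. No gene passed both thresholds when LGR5- replicate 3 was left out.

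Of the genes whose groups did not overlap, those next to Lyz2 in unadjusted P on the higher side were Gpt2, an alanine transaminase of mitochondria, Zdhhc9, a palmitoyltransferase, Cd55, which shields cells from complement, and Tmem53. Tmem53 had a mean of 9.39 CPM in LGR5- and 13.2 CPM in LGR5+ cells and so passed the limit only through the LGR5+ libraries. Gpt2 was at 25.3, 20.2 and 22.6 CPM in LGR5- and 26.6, 51.1 and 37.4 CPM in LGR5+ cells (log2 fold change 0.76 ± 0.27 (SE), unadjusted P = 0.0150), and its unadjusted P was 0.102 when LGR5+ replicate 2 was left out and 0.0504 when LGR5- replicate 2 was. Zdhhc9 differed less but with less spread, at 22.5 ± 1.38 CPM against 29.8 ± 3.83 CPM (SD, n = 3, edgeR, unadjusted P = 0.0191). On the lower side they were Spaca6, a sperm membrane protein gene, Setd1a, a histone H3 methyltransferase, Dido1, St8sia4 and 2010320M18Rik. Spaca6 was at 10.8, 9.98 and 27.6 CPM against 9.24, 9.59 and 6.75 CPM, and its unadjusted P of 0.0149 rose to 0.241 when LGR5- replicate 3 was left out and to 0.0621 when LGR5+ replicate 3 was. With a mean of 8.53 CPM in LGR5+ cells it passed the limit only through the LGR5- libraries, so its difference helped to decide its membership. Setd1a was at 14.8, 18.6 and 19.1 CPM against 12.9, 12.8 and 11.7 CPM, with no single library apart (log2 fold change -0.49 ± 0.19). Each had an adjusted P of 1 in edgeR.

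The tissue label was checked against marker lists. Of 22 hepatocyte markers 3 were above 10 CPM (Trf, Ass1 and Afp) and 11 had no read in any of the 6 libraries, among them Hnf4a, the nuclear receptor that defines hepatocytes, Ttr, Fga, Fgb and Fgg. Alb, the serum albumin gene, was at 0.278 to 1.27 CPM. Of 15 cholangiocyte markers 12 were above the limit, and all 12 excluded a 2-fold difference: Krt19 was at 374, 402 and 385 CPM in LGR5- and 379, 493 and 564 CPM in LGR5+ cells, and Krt7 at 732, 692 and 564 CPM against 717, 767 and 747 CPM. Of 15 lung epithelium markers 9 were above the limit, with Nkx2-1, the lung and thyroid transcription factor, at 43.3, 50.9 and 53.7 CPM against 47.6, 58.1 and 56.9 CPM. Their summed level followed Sftpc, at 3910 to 18100 CPM in LGR5- and 5550 to 16400 CPM in LGR5+ cells. Fewer cells of a type and less RNA per cell cannot be told apart in such bulk samples. Lists of other types held a few genes above the limit beside defining genes with no read in the 6 libraries. Of 9 mast cell markers Kit (14.3 CPM in LGR5-, 16.8 CPM in LGR5+) and Hdc (15.8 and 11.4 CPM) were above it, while Cpa3 had no read. Of 12 endothelial markers Egfl7 was above it (15 and 14.4 CPM), while Lyve1, Tie1 and Erg had no read. Of 13 fibroblast markers Dcn was above it (38.9 and 43.2 CPM), while Col1a2, Lum and Thy1 had no read. No erythroid marker reached 10 CPM.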

How the data were processed

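The authors isolated RNA from sorted organoid cells on small columns, made cDNA by SMART-Seq v4 amplification and had the libraries sequenced paired-end. They deposited whole-number read counts per gene, not normalized, for 47069 genes and 12 libraries. The submitters' processing notes name HISAT2, HISAT, TopHat2 and HTSeq and the build mm8, without roles. The annotation counted is not given in the sources used here. Symbols, positions and exon lengths are those of GENCODE M21 on GRCm38 (46574 identifiers matched, 495 not) and describe that annotation, not the authors' counting. Nothing says whether counting used strand, so overlapping and antisense genes may share reads.

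Counts were filtered with filterByExpr (16157 genes), scaled by TMM and fitted in edgeR 4.0.16 (R 4.3.3) with glmQLFit, robust, on 4 group means over the 12 libraries. Log2 fold changes, LGR5+ over LGR5-, were tested with glmQLFTest and adjusted by Benjamini-Hochberg over all 16157 genes. Standard errors came from the fitted weights and the quasi-dispersion, and were at least those of counting error. The 95% interval used the test's degrees of freedom, and equivalence within 2-fold used a pair of one-sided tests. Settings were tested on simulated data. CPM are TMM-scaled. The study's own thresholds (P under 0.05 and a log fold change past 1.5 in either direction) were also applied. The study gives neither the base of the log nor whether P was adjusted, and they were read here as log2 and unadjusted P. Alternatives used DESeq2 1.42.0 and limma 3.58.1, other filters and scalings, a replicate block and each untreated library left out. With 3 libraries against 3, an exact permutation test cannot go below 0.1 and was not used.

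The 47 gene lists (1396 genes) were written from general knowledge. Members and lists were chosen with earlier results of these data known. Genes named are Lgr5, the 20 highest by CPM and 10 highest per kilobase, the 5 higher and 5 lower with the smallest P without overlap, the 5 smallest and 5 largest bounds, the narrowest, widest and 2 most abundant of each list, and Wnt and stem members. Some genes are not reported here. Bbc3, Cth, Deptor, Gm26917, Usp18, Irf7, Oas1a, Lgals9 and others outside this rule were named after their values were seen. Lists were given no test. A search for GAAANNGAAA used RefSeq promoters.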

Additional observations from a re-analysis of the deposited data

How the results depend on the processing

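No alternative gave a gene of the 9015 an adjusted P under 0.05. Counts with a 2-fold difference excluded and with equivalence within 2-fold, and the number shared by the lists of 100 most abundant genes (86 to 93 as single libraries were left out, 92 per kilobase), stayed within 1.5 times their main values throughout. Leaving out 1 library gave 2459 to 3659 genes with a 1.5-fold difference excluded, a median bound of 0.625 to 0.6874 on the log2 scale, 28 to 188 genes at an unadjusted P under 0.05 and 0 to 3 past both thresholds. Fewer libraries enter these fits. The median bound was 0.6056 for genes at 5 or more CPM and 0.4975 with a 90% interval. For genes at 20 or more CPM, 26 had an unadjusted P under 0.05 and 1 passed both thresholds, and with limma-voom 1 passed them. With the replicate block, 176 genes had an unadjusted P under 0.05, 1 passed both thresholds and the median bound was 0.4992. The number with a 1.5-fold difference excluded was 6493 with that block and 6295 with a 90% interval. Same-numbered libraries did not all deviate together (correlations of 0.705, -0.0442 and 0.367 for replicates 1, 2 and 3), and LGR5- replicate 2 correlated more with LGR5+ replicate 1 (0.355), so the numbers were not taken to pair the libraries. Of 13944 other values compared across settings, 755 moved by more than their error or changed side of the threshold. For markers with no read, a count of 0 allowed up to 0.165 to 0.184 CPM, covering counting error only.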
